A study of Mus musculus with 3 samples.

Results

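The cytochrome P450 genes (symbols that start with *Cyp*) were followed across the cell types of the postnatal mouse lung. Members were all gene symbols that consist of Cyp, a family number, a subfamily letter, and a gene number, with 1 matching symbol left out, which gave 93 of the 28692 genes counted. The data are scRNA-Seq counts from the whole lungs of 3 wild-type C57BL/6 pups kept in room air (RA) from day 1 to day 14 of life and taken at P14, numbered mice 2, 3, and 4. No pup carried a transgene or received another treatment, so the libraries form 1 condition and the comparisons are between cell types, with the mouse as the replicate (n = 3). Each library was made from 16000 dissociated cells, per the sample labels.

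The deposited matrices list 9644 cells, and the design text of the series speaks of 5677 lung cells. Cells were required to show 200 genes or more and no more than 20% of UMIs from mitochondrial genes, which left 7642 (2386, 2601, and 2655 in mice 2, 3, and 4), with 20804836 to 23442355 UMIs per mouse. A UMI (unique molecular identifier) marks 1 captured transcript, and CPM is the UMIs of a gene per 1000000 UMIs of the cells summed. Cells were grouped into 31 clusters without the help of any *Cyp* gene, and clusters were named from marker lists that hold no *Cyp* gene, so a level below is not what defined its cell type. Every name is short for "like", such as club-like. The types numbered 20, in epithelial (1258 cells), endothelial (949), stromal (1540), and immune (3008) classes, and 887 cells stayed unnamed. No ciliated or lymphatic cluster was found. One of the types is a stromal cluster of 100 cells that met the marker list of *Col14a1* fibroblasts but was led by *Dcn* together with the cartilage genes *Col2a1*, *Col10a1*, *Col11a1*, and *Acan*, and it is called the *Dcn* stromal cluster. Between 2 and 5 cell barcodes were shared by any 2 libraries. Reads came from the 3′ end of transcripts, so CPM carries no term for gene length, and a level is a share of the RNA captured.

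Cytochrome P450 enzymes carry heme and insert oxygen into their substrates. Those of the endoplasmic reticulum receive electrons from cytochrome P450 oxidoreductase (*Por*), and those of mitochondria from ferredoxin (*Fdx1*). The *Cyp1*, *Cyp2*, and *Cyp3* families oxidize mostly foreign compounds, the *Cyp4* family and the *Cyp2j* and *Cyp2u* subfamilies oxidize fatty acids and eicosanoids, and the remaining families act on cholesterol, bile acids, vitamin D, retinoic acid, or steroid hormones. In the mouse lung, the secretory club cell of the airway is known for P450 enzymes that activate inhaled toxicants such as naphthalene.

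The kept cells held 31182 member UMIs, or 505, 417, and 479 CPM in mice 2, 3, and 4, and 64.5% of cells held at least 1. Most members had no UMI at this depth. Of the 93 members, 50 had no UMI (53.8%, against 28.4% of all genes), 11 had 1 to 3, 10 had 4 to 49, and 22 had 50 or more (23.7%, against 51.3% of all genes). Roles, here and below, were assigned from the family or subfamily in the symbol, so a single member can have another known substrate or none. By role, the 48 members that oxidize foreign compounds held 54.2% of the member UMIs, with 31 members at 0 and 8 with 50 or more. The 26 members that oxidize fatty acids and eicosanoids held 32.2%, with 11 at 0 and 8 with 50 or more. The 6 enzymes of cholesterol and bile acid metabolism held 5.57%, the 6 of steroid hormone synthesis 0.956%, the 3 of vitamin D metabolism 0.273%, and the 2 retinoic acid hydroxylases 0.0224%. The last 2 members fit none of these roles, and 1 of them, the orphan enzyme *Cyp20a1*, held 6.80%. A single gene, *Cyp2f2*, held 40.6% of all member UMIs. Few cells carried most of it, as 10 cells held 54.8% of the *Cyp2f2* UMIs. Cells marked as likely doublets (droplets with more than 1 cell) held 23.8% of them.

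Epithelial cells held 53.7 ± 8.54% of the member UMIs (SD, n = 3), stromal cells 17.3 ± 1.13%, endothelial cells 15.3 ± 1.44%, and immune cells 11.4 ± 5.75%. In mice 2, 3, and 4, the epithelial share was 59.9, 44.0, and 57.4%, and the immune share was 7.21, 18.0, and 9.06%. Mouse 3 was the lowest for the epithelial and the highest for the immune share. It also had the fewest epithelial cells (452, 303, and 503 in mice 2, 3, and 4) and the most immune cells (692, 1428, and 888). The summed member level was 806, 709, and 745 CPM in epithelial cells and 237, 244, and 255 CPM in immune cells. A share thus depends on the number of cells and is not a level per cell. The 48 club cells (14, 13, and 21 per mouse) alone held 43.8% of the member UMIs. Their summed member level was 5354 ± 468 CPM. It was 2407 ± 108 CPM in basophil or mast cells, 1087 ± 91.8 CPM in *Car4* capillary ECs, and 637 ± 9.87 CPM in neutrophils. Of the other named types, the highest were arterial ECs and interstitial macrophages at 449 ± 6.21 and 457 ± 41.6 CPM, and the lowest were T and NK cells, at 66.8 ± 25.1 and 61.4 ± 5.76 CPM. These summed levels did not overlap between the 4 leading types in any mouse. Basophil or mast cells numbered only 6 in mouse 2.

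**Figure D1:**
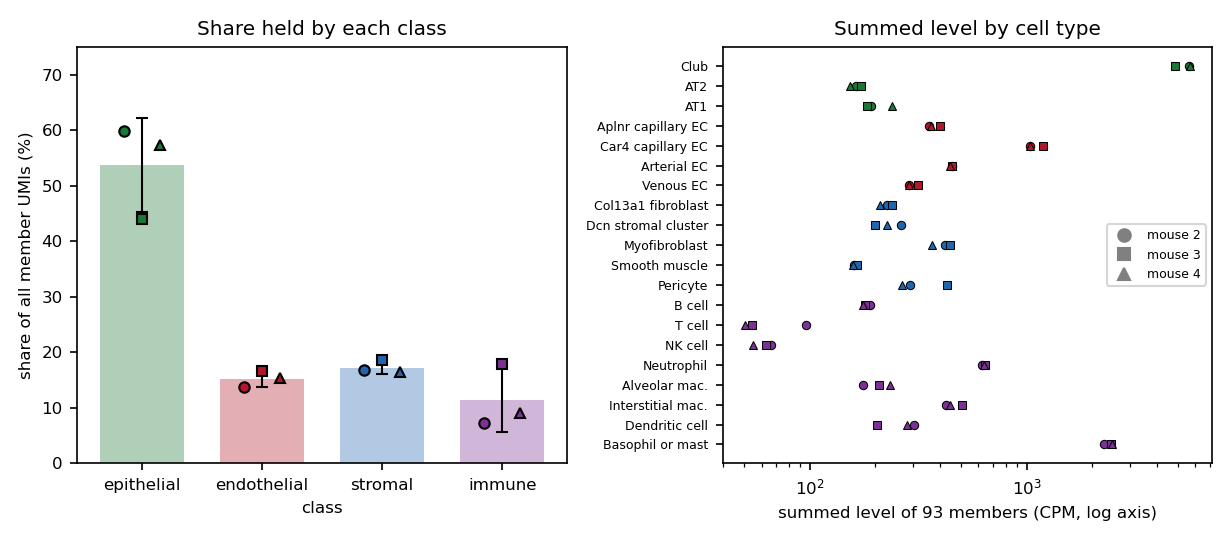
Left, share of all cytochrome P450 UMIs (percent) held by each class, with bars for the mean of 3 mice, error bars for the SD, and symbols for mice. Right, summed level of the 93 members in CPM (log axis) in each of 20 cell types, 1 symbol per mouse. Club cells stand highest in every mouse, followed by basophil or mast cells and *Car4* capillary ECs.

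**Figure D2:**
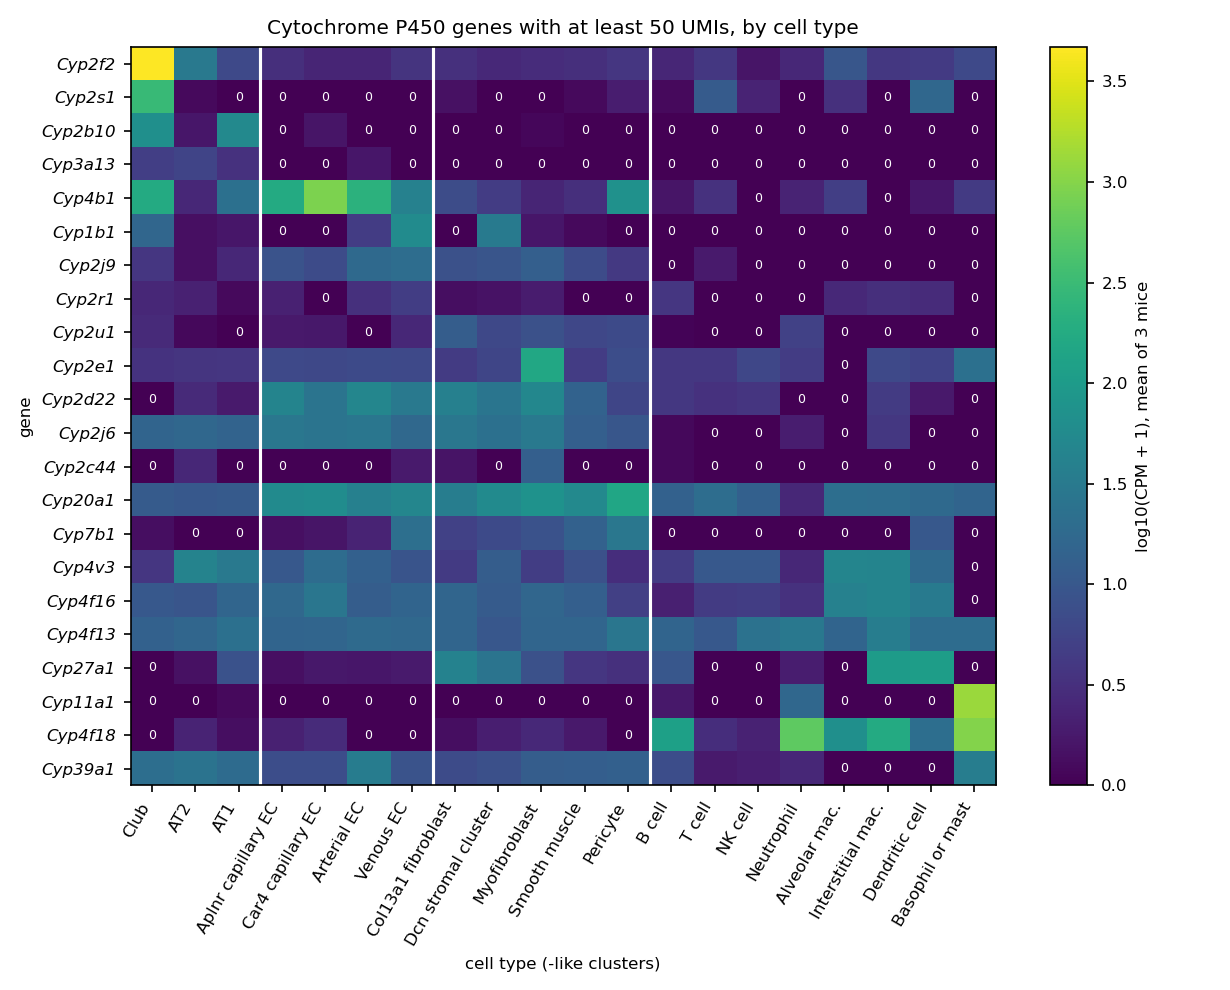
Mean level over 3 mice, as log10(CPM + 1), of the 22 members with at least 50 UMIs (rows) in 20 cell types (columns), with white lines between epithelial, endothelial, stromal, and immune types and 0 where no UMI was counted. *Cyp2f2* in club cells is the highest value, and *Cyp11a1*, *Cyp2c44*, *Cyp3a13*, and *Cyp2b10* are at 0 in 15 or 16 of the types.

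*Cyp2f2* (GRCm38 chr7:27119909-27133660, + strand, GENCODE M21), the naphthalene-oxidizing enzyme of the club cell, was at 5005, 4053, and 4997 CPM in the club cells of mice 2, 3, and 4. Club cells held 94.9% of its 12647 UMIs. *Cyp2s1* (chr7:25802475-25816913, - strand), an enzyme of surface epithelia, was at 207, 391, and 285 CPM in the same cells. These were the leading P450 genes of the airway, and both belong to a stretch of chromosome 7 with 13 members (25802475 to 27158668), of which 7 had no UMI and only 3, *Cyp2f2*, *Cyp2s1*, and *Cyp2b10*, had 50 or more. The promoters of the first pair are shown because club cells were the highest type for both, as RefSeq (GRCm38.p6) gives them, from 250 bases before to 50 after the start site. Capitals mark the letters CAAGTG, the core of NKX2 motifs, on either strand.
Cyp2f2 promoter, chr7:27119705-27120004 (+ strand): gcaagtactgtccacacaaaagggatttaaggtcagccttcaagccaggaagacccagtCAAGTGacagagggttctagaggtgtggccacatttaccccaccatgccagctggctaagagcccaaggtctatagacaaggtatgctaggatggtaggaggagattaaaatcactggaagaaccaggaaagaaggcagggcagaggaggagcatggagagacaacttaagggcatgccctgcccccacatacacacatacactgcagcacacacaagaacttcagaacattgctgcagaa
Cyp2s1 promoter, chr7:25816476-25816775 (- strand): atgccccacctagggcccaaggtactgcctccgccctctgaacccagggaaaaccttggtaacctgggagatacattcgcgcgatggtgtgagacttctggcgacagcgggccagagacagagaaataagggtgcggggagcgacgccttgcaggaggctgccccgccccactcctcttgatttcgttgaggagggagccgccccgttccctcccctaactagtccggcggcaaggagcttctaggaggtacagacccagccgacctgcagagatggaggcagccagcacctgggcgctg
The *Cyp2f2* window held CAAGTG once, starting 191 bases before the start site, and the *Cyp2s1* window held none of the motifs searched, which were those of NKX2, GATA, and aryl hydrocarbon receptor factors and the TATA box, searched on both strands with the letters given where each was found. No matches overlapped in the members. Those letters occur in 13.6% of all 32851 promoter windows.

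Besides *Cyp2f2* and *Cyp2s1*, club cells carried *Cyp4b1*, which oxidizes fatty acids and activates protoxins, at 204, 145, and 178 CPM. *Cyp2b10*, an enzyme induced through the constitutive androstane receptor, was at 50.7, 66.0, and 82.4 CPM. *Cyp1b1*, which oxidizes estrogens and polycyclic hydrocarbons, was at 27.4, 4.83, and 14.3 CPM, with mouse 3 the lowest. Of the members with fewer than 50 UMIs, *Cyp2a5*, an oxidase of coumarin and nicotine, was counted in club cells alone, with all of its 37 UMIs there (6, 20, and 11). *Cyp4f15*, a fatty acid hydroxylase, had 43 of its 45 UMIs there.

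Club cells were compared with AT2 cells, the surfactant-producing cells of the alveolus, by edgeR's quasi-likelihood test on UMIs summed per mouse, scaled by TMM (edgeR's factor for differences in RNA makeup), with a call at an adjusted p under 0.05 over all genes. Of the 18 members tested, 6 passed the test as higher in club cells and 2 as lower, and 38.1% of all genes passed (21.7% higher and 16.5% lower). A share of members close to that of all genes says nothing particular of the members, here and below. The filter on low counts was run once over all types, so the same 18 members were tested in every pair of types. A member may have met it only through types outside the pair, as may any other gene. Members with few or no UMIs in both types could hardly pass and draw the median log2 fold change toward 0. *Cyp2f2* was higher in club cells (log2 fold change 7.52 ± 0.27 [SE], edgeR adjusted p = 6.55e-30), as were *Cyp2s1* (log2 fold change 9.96 ± 0.32 [SE], edgeR adjusted p = 1.83e-24), *Cyp4b1* (log2 fold change 6.91 ± 0.30 [SE], edgeR adjusted p = 4.31e-25), *Cyp2b10* (log2 fold change 6.601 ± 0.43 [SE], edgeR adjusted p = 1.22e-12), and *Cyp1b1* (log2 fold change 5.26 ± 0.71 [SE], edgeR adjusted p = 1.12e-07). In each of these 5 genes the 3 mice of 1 type did not overlap those of the other. How many of all genes did so was not counted, here and below. *Cyp2j9*, of the *Cyp2j* subfamily, also passed (log2 fold change 2.51 ± 0.99 [SE], edgeR adjusted p = 0.0236), on 6 UMIs in club cells against 7 in AT2 cells. *Cyp4v3*, a fatty acid hydroxylase, was lower in club cells, at 3.04, 3.22, and 2.20 CPM against 42.5, 43.6, and 42.5 CPM (log2 fold change -3.68 ± 0.43 [SE], edgeR adjusted p = 2.16e-10). *Cyp2d22*, of the drug-oxidizing *Cyp2d* subfamily, had no UMI in club cells and 30 in AT2 cells, at least 1.47-fold lower against the limit of 3 UMIs over the club cells (edgeR adjusted p = 0.0236). Between club and AT2 cells, calls were lost without mouse 2 by *Cyp2j9* (0.152) and *Cyp2d22* (0.121), without mouse 3 by *Cyp2j9* (0.476) and *Cyp2d22* (0.0843), and without mouse 4 by *Cyp2d22* (0.122), with the edgeR adjusted p in parentheses. Alternatives also ended calls with DESeq2 by *Cyp2b10* (0.479) and *Cyp2d22* (0.0605). The edgeR call of *Cyp2d22* was lost too with clusters at resolution 0.4 (0.144) and with marked doublets removed (0.133). In that last fit mouse 2 had 9 club cells, under the limit of 10 per sum. Only club cells of mice 3 and 4 were therefore in it, so removing doublets cannot be told apart from leaving out mouse 2. Of all calls, 56.8% were higher with TMM and 41.1% with library totals, which shifted the median of all genes by -0.21, and the members split 6 higher and 2 lower there. In this pair, the median log2 fold change was 0.17 over the 18 members tested and 0.00 over all 12402 genes tested.

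Club cells were few, deep, and often marked by quality measures. Their median was 38565 UMIs against 16194 in AT2 cells, 8 of 48 were marked as likely doublets (droplets with more than 1 cell), and their median mitochondrial share was 11.9%. Without the marked cells, *Cyp2f2* was at 4336, 4053, and 4649 CPM. Under a stricter filter of 500 genes and 10% mitochondrial UMIs, only 4, 2, and 8 club cells remained, and *Cyp2f2* was at 4621, 1954, and 4524 CPM. Under that filter the mean epithelial share of all member UMIs was 37.2% in place of 53.7%. It was 45.2, 20.2, and 46.1% in mice 2, 3, and 4. In mouse 3 it lay below the stromal (29.8%), endothelial (25.3%), and immune (20.8%) shares.

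AT2 cells and AT1 cells, the flat gas-exchange cells, had summed member levels of 163 ± 9.86 and 205 ± 30.05 CPM, and different genes led. In AT2 cells the leading member was *Cyp4v3* (GRCm38 chr8:45304944-45333216, - strand), at 42.5, 43.6, and 42.5 CPM, against 22.5, 32.0, and 32.6 CPM in AT1 cells. In AT1 cells it was *Cyp2b10* (chr7:25897620-25926624, + strand), at 51.5, 40.0, and 65.2 CPM, against 0.620, 0.234, and 1.09 CPM in AT2 cells. Between club and AT1 cells, *Cyp2b10* overlapped, and no UMI of it was found in 15 of the 20 types. *Cyp39a1*, an oxysterol hydroxylase, was at 19.7, 26.3, and 24.9 CPM in AT2, 19.3, 18.0, and 17.4 CPM in AT1, and 16.2, 24.2, and 20.9 CPM in club cells. *Cyp3a13*, a drug-oxidizing enzyme, was counted in epithelial cells at 3.72, 4.92, and 5.30 CPM in AT2, 6.08, 3.22, and 2.20 CPM in club, and 1.07, 2.00, and 3.79 CPM in AT1 cells, ranges that overlap, and 96 of its 105 UMIs were epithelial.

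Of the 18 members tested between AT2 and AT1 cells, 3 were higher in AT2 and 3 higher in AT1 cells, against 33.5% of all genes (17% higher and 16.5% lower). *Cyp2b10* differed most (log2 fold change -5.82 ± 0.43 [SE], edgeR adjusted p = 2.21e-11). *Cyp4b1* was at 20.4, 14.0, and 31.1 CPM in AT1 and 0.930, 1.17, and 2.65 CPM in AT2 cells (log2 fold change -3.53 ± 0.46 [SE], edgeR adjusted p = 7.14e-09), and *Cyp27a1*, the mitochondrial sterol hydroxylase of the bile acid pathway, at 3.22, 10.0, and 9.10 and 0.155, 0.469, and 0.779 CPM (log2 fold change -3.44 ± 0.62 [SE], edgeR adjusted p = 4.26e-06). All 3 were higher in AT1 cells in every mouse. *Cyp2f2* (log2 fold change 2.68 ± 0.40 [SE], edgeR adjusted p = 1.48e-07), *Cyp4v3* (log2 fold change 0.82 ± 0.24 [SE], edgeR adjusted p = 0.00555), and *Cyp39a1* (log2 fold change 0.63 ± 0.25 [SE], edgeR adjusted p = 0.0478) were higher in AT2 cells. For AT2 against AT1 cells, calls were lost without mouse 2 by *Cyp4v3* (0.111) and *Cyp39a1* (0.103), without mouse 3 by *Cyp39a1* (0.168), and without mouse 4 by *Cyp39a1* (0.344), with the edgeR adjusted p in parentheses. More calls fell out with library totals in place of TMM by *Cyp4v3* (0.0730) and *Cyp39a1* (0.303), with DESeq2 by *Cyp2b10* (0.571), and with no filter on low counts by *Cyp39a1* (0.125). Of all calls, 50.8% were higher with TMM and 28.4% with library totals, which shifted the median of all genes by -0.21, and the members split 1 higher and 4 lower there. The AT1 cells came from clusters with *Cyp2b10* means of 58.0 and 51.4 CPM. Over the alveolar pair, the median log2 fold change was 0.10 over the 18 members tested and 0.10 over all 12402 genes tested.

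*Cyp2f2* in AT2 cells was at 42.3, 27.4, and 19.01 CPM, with a UMI in 25.6% of 1043 AT2 cells (23.0 to 28.4%, the 95% interval by the exact binomial method). In B cells, which should lack the gene, it had a UMI in 0.730% of 1782 cells, at a median of 3959.5 UMIs per cell against 16194 in AT2 cells. Thinned to 1000 UMIs per cell, the shares were 2.54% and 0.190%. The 10 AT2 cells with the most held 33.0% of the AT2 UMIs, and 1 of them had 122. AT2 cells with *Cyp2f2* held a mean of 2.60 UMIs of *Scgb1a1* and *Scgb3a2*, the club cell secretoglobins, and those without held 0.951. The shares of cells with a UMI of either were closer, at 61.8% and 54.9%. In B cells these shares were 30.8% in the 13 cells with *Cyp2f2* and 34.2% in those without. The 6 club markers summed to 398, 341, and 322 CPM in AT2 cells and to 308321, 192352, and 332457 CPM in club cells, with none of the 6 at 0 in AT2 cells. Their part in the AT2 level of *Cyp2f2* was not tested.

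Each class was also tested against the mean of the log2 levels of the other 3 classes, so that a class can pass as higher and still lie below 1 of the others in CPM. For the epithelial class, 11 of the 21 members tested were higher on this log2 scale and 7 lower, and 71.2% of all genes passed (34.6% higher and 36.6% lower). The calls higher with every class above 0 were *Cyp2f2* (8.41 ± 0.12), *Cyp4v3* (2.59 ± 0.10), *Cyp39a1* (1.91 ± 0.14), *Cyp2j6* (1.90 ± 0.16), *Cyp2c44* (1.82 ± 0.65), *Cyp4b1* (1.47 ± 0.21), and *Cyp4f13* (0.38 ± 0.11), as log2 fold change ± SE. *Cyp2b10* (14.4 ± 4.39 CPM), *Cyp2s1* (33.4 ± 10.9 CPM), *Cyp3a13* (4.30 ± 0.536 CPM), and *Cyp1b1* (2.14 ± 1.203 CPM) were higher with at least 1 other class at 0, and no fold is given. The filter on low counts can be met by the sums of 1 class alone. A member near 0 elsewhere may therefore be tested only through the class where it is high, here and in the other class contrasts. The same holds for all genes. Of the 11, 7 also lay above the mean of the other classes in CPM, and 4 did not. *Cyp4b1* was at 23.8 ± 4.28 CPM in epithelial cells against 290.3 ± 53.7 CPM in ECs, *Cyp2j6* at 15.3 ± 1.96 against 25.7 ± 2.68 CPM in ECs, *Cyp1b1* at 2.14 ± 1.203 against 7.30 ± 4.44 CPM in ECs, and *Cyp2c44* at 1.23 ± 0.704 against 6.02 ± 0.883 CPM in stromal cells. The lower calls were *Cyp7b1* (-5.19 ± 1.17), *Cyp2d22* (-2.96 ± 0.19), *Cyp4f18* (-2.15 ± 0.58), *Cyp2e1* (-1.69 ± 0.18), *Cyp2u1* (-1.68 ± 0.64), *Cyp27a1* (-1.64 ± 0.50), and *Cyp20a1* (-1.55 ± 0.11). For the epithelial class, calls were lost without mouse 2 by *Cyp2u1* (0.120) and *Cyp1b1* (0.207), without mouse 3 by *Cyp2c44* (0.190), and without mouse 4 by *Cyp2u1* (0.232), with the edgeR adjusted p in parentheses. Further losses came with library totals in place of TMM by *Cyp4f13* (0.914) and *Cyp1b1* (0.0827), with the mouse as a block by *Cyp1b1* (0.0623), with marked doublets removed by *Cyp27a1* (0.0796) and *Cyp1b1* (0.0989), and with the stricter filter of 500 genes and 10% mitochondrial UMIs by *Cyp4b1* (0.183) and *Cyp1b1* (0.292). Of all calls, 48.6% were higher with TMM and 31.4% with library totals, which shifted the median of all genes by -0.37, and the members split 9 higher and 8 lower there. In this contrast, the median log2 fold change was 0.38 over the 21 members tested and -0.09 over all 14195 genes tested.

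*Cyp4b1* (GRCm38 chr4:115624725-115647723, - strand) was the leading member of 3 of the 4 EC types. It was at 851, 996, and 836 CPM in *Car4* capillary ECs, the large capillary cells next to AT1 cells. It was at 219.6, 239.5, and 220.0 CPM in arterial ECs and at 162, 197, and 169.9 CPM in *Aplnr* capillary ECs. It was lowest in venous ECs, at 46.1, 42.5, and 30.4 CPM. The *Car4* type lay above every other type in each mouse, and the venous type below the other EC types in each mouse, while arterial and *Aplnr* capillary ECs and club cells lay closer together. Its RefSeq promoter is shown because its level differs across the EC types, and no letters are in capitals because none of the motifs searched was found.
Cyp4b1 promoter, chr4:115647672-115647971 (- strand): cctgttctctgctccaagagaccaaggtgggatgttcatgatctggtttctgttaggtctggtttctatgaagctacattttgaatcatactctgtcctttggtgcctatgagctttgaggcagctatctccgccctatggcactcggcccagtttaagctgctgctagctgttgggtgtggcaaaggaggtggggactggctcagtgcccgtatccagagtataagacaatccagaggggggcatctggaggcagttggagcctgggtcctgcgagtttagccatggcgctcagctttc

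Between the capillary types, 1 member of 18 was higher in the *Aplnr* type and 1 in the *Car4* type, and 8.01% of all genes passed (4.02% higher and 4% lower). *Cyp4b1* was higher in the *Car4* type (log2 fold change -2.31 ± 0.18 [SE], edgeR adjusted p = 2.36e-14), where its UMIs made 82.2% of all member UMIs. *Cyp2d22* was higher in the *Aplnr* type, at 44.4, 48.4, and 42.2 CPM against 21.3, 31.9, and 20.1 CPM (log2 fold change 0.91 ± 0.26 [SE], edgeR adjusted p = 0.0175). Between capillary types, calls were lost without mouse 2 by *Cyp2d22* (0.215), without mouse 3 by *Cyp2d22* (0.0563), and without mouse 4 by *Cyp2d22* (0.175), with the edgeR adjusted p in parentheses. The log2 fold change of *Cyp2d22* lay between 0.81 and 1.26 over all alternatives. *Cyp4v3* (17.1, 16.9, and 21.8 CPM in the *Car4* type and 7.48, 8.72, and 12.1 CPM in the *Aplnr* type) did not pass (log2 fold change -0.92 ± 0.41 [SE], edgeR adjusted p = 0.181), though the mice did not overlap. Nor did *Cyp4f16*, an eicosanoid hydroxylase (log2 fold change -0.71 ± 0.29 [SE], edgeR adjusted p = 0.135). For the capillary pair, the median log2 fold change was 0.00 over the 18 members tested and 0.05 over all 12402 genes tested.

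By mean level, venous ECs were led by *Cyp1b1* (GRCm38 chr17:79701537-79715061, - strand), at 24.2, 45.5, and 104 CPM, with mouse 4 far above mouse 2. The leading genes of this cluster included the lymphatic markers *Ccl21a* and *Mmrn1* beside the venous *Slc6a2*, *Vwf*, and *Prss23*, and the 6 lymphatic markers, none at 0, summed to 1232, 27.3, and 4268 CPM in the 3 mice, with mouse 4 the highest here too. Of the venous cells, 26 held at least 1 UMI of these markers and 81 held none. *Cyp1b1* was at 41.8 CPM in the 26 and 64.6 CPM in the 81. *Cyp2j9* was at 19.7 and 19.4 CPM, and *Cyp7b1* at 2.46 and 29.7 CPM. The 5 venous cells with 3 or more UMIs of these markers held no UMI of *Cyp1b1*, *Cyp7b1*, or *Cyp2j9*, and are too few to set these genes apart from lymphatic RNA. The 67 venous *Cyp1b1* UMIs lay in 20 of 107 cells, and no UMI was found in the 524 *Aplnr* and 173 *Car4* capillary ECs. Against 3 UMIs over each capillary type, that count of 0 allows up to 0.553 CPM in the *Aplnr* and 1.88 CPM in the *Car4* type. *Cyp2j9* was at 22.0, 27.3, and 10.1 CPM in venous and 16.6, 9.21, and 25.5 CPM in arterial ECs, which overlap. *Cyp7b1*, an oxysterol hydroxylase, was at 26.4, 33.4, and 2.53 CPM in venous ECs. *Cyp39a1* was at 35.2, 41.5, and 23.6 CPM in arterial ECs against 6.59, 6.07, and 10.1 CPM in venous ECs. These venous and arterial values come from 107 and 145 cells and were not compared by a test.

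Over the EC class, 7 of 21 members were higher than the mean log2 level of the other classes and 7 lower, beside 59.7% of all genes (29.7% higher and 30% lower). The higher calls, as log2 fold change ± SE, were *Cyp4b1* (5.59 ± 0.15), *Cyp2j9* (3.25 ± 0.27), *Cyp2d22* (2.71 ± 0.12), *Cyp2j6* (2.26 ± 0.16), *Cyp20a1* (1.10 ± 0.10), and *Cyp4f16* (0.51 ± 0.17), together with *Cyp1b1* (3.22, 6.65, and 12.04 CPM, with no UMI in immune cells). *Cyp2j6* is, like *Cyp2j9*, of the *Cyp2j* subfamily. The lower calls were *Cyp27a1* (-3.91 ± 0.56), *Cyp2c44* (-3.02 ± 1.29), *Cyp2f2* (-2.96 ± 0.31), *Cyp4f18* (-2.71 ± 0.64), *Cyp2e1* (-1.06 ± 0.19), and *Cyp4f13* (-0.33 ± 0.13) and *Cyp2s1*, which had no UMI in 949 ECs. For ECs, calls were lost without mouse 2 by *Cyp4f16* (0.114), *Cyp4f13* (0.130), and *Cyp2c44* (0.989), without mouse 3 by *Cyp4f13* (0.0527) and *Cyp2c44* (0.0760), and without mouse 4 by *Cyp4f13* (0.184), with the edgeR adjusted p in parentheses. Other losses came with library totals in place of TMM by *Cyp4f13* (0.845) and *Cyp2c44* (0.0626), with DESeq2 by *Cyp4f13* (0.0767), with no filter on low counts by *Cyp4f13* (0.0628), with the mouse as a block by *Cyp4f13* (0.0566) and *Cyp2c44* (0.0658), with marked doublets removed by *Cyp2c44* (0.0541), and with the stricter filter of 500 genes and 10% mitochondrial UMIs by *Cyp2f2* (0.0765), *Cyp4f13* (0.138), and *Cyp2c44* (0.991). Of all calls, 49.8% were higher with TMM and 69.0% with library totals, which shifted the median of all genes by 0.28, and the members split 8 higher and 5 lower there. In the EC contrast, the median log2 fold change was -0.33 over the 21 members tested and -0.06 over all 14195 genes tested.

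*Cyp2e1* (GRCm38 chr7:140763739-140774987, + strand), the ethanol-oxidizing enzyme best known from liver, was at 159.7, 194, and 119 CPM in myofibroblasts. Myofibroblasts held 85.9% of its 1574 UMIs. Both clusters named myofibroblast carried it, the 451 cells led by *Aspn* at 129.6, 129, and 92.1 CPM and the 355 cells led by *Agt* and *Stc1* at 204, 249, and 149.9 CPM. *Cyp2c44*, an arachidonic acid epoxygenase, had 105 of its 134 UMIs in the same cells, at 9.78, 14.0, and 12.2 CPM, and 25 in AT2 cells. The *Cyp2e1* promoter is shown because the gene had most of its UMIs in 1 stromal type, and capitals mark the TATA box letters TATAAA, which start 31 bases before the start site.
Cyp2e1 promoter, chr7:140763569-140763868 (+ strand): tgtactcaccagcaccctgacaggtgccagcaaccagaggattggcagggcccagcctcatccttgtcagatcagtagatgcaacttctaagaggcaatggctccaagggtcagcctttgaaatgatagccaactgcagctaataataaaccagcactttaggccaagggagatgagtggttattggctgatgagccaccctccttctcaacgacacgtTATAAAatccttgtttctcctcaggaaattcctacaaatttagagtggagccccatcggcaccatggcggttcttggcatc
TATAAA was found in *Cyp2e1* only among the 17 of these 22 members with a RefSeq promoter, and in 13.6% of all promoter windows.

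*Col13a1* fibroblasts, which support AT2 cells, were compared with myofibroblasts. Of 18 members tested, 2 were higher in the fibroblasts and 2 in myofibroblasts, beside 29.5% of all genes (15.9% higher and 13.6% lower). *Cyp2e1* was at 3.25, 1.08, and 5.64 CPM in *Col13a1* fibroblasts (log2 fold change -5.48 ± 0.32 [SE], edgeR adjusted p = 1.05e-20). *Cyp20a1* was at 37.4, 41.0, and 26.8 CPM against 78.9, 64.9, and 76.4 CPM (log2 fold change -0.94 ± 0.20 [SE], edgeR adjusted p = 1.34e-04). *Cyp27a1* went the other way, at 55.3, 42.1, and 25.4 CPM against 8.15, 7.21, and 6.37 CPM (log2 fold change 2.58 ± 0.31 [SE], edgeR adjusted p = 3.01e-09). For these 3 genes the mice of the types did not overlap. *Cyp4b1* also passed (log2 fold change 2.28 ± 0.80 [SE], edgeR adjusted p = 0.0186), but 14 of its 16 UMIs in *Col13a1* fibroblasts were from mouse 3, and without that mouse the log2 fold change was -0.16 (adjusted p = 0.986, edgeR). EC markers stood highest in mouse 3 there too, at 168, 472, and 62.0 CPM over 6 genes, none at 0, and their part was not tested, and the call was also lost with marked doublets removed (log2 fold change -0.51, adjusted p = 0.848, edgeR). Of all calls, 53.8% were higher with TMM and 43.7% with library totals, which shifted the median of all genes by -0.11, and the members split 2 higher and 2 lower there. In the fibroblast and myofibroblast pair, the median log2 fold change was -0.18 over the 18 members tested and -0.02 over all 12402 genes tested.

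The *Dcn* stromal cluster differed from *Col13a1* fibroblasts in 2 members, both higher, beside 21.1% of all genes (11.7% higher and 9.42% lower). *Cyp1b1* was at 20.8, 34.6, and 36.5 CPM and had no UMI in 210 *Col13a1* fibroblasts, at least 22.9-fold higher against the limit of 3 UMIs over the group (edgeR adjusted p = 1.51e-05). *Cyp20a1* was at 76.9, 40.9, and 50.5 CPM against 37.4, 41.0, and 26.8 CPM (log2 fold change 0.69 ± 0.26 [SE], edgeR adjusted p = 0.0460), ranges that overlap. The 4 cartilage genes summed to 2834, 7188, and 2233 CPM in the cluster and to 0 in *Col13a1* fibroblasts. Of the 100 cells, 21 held a UMI of these genes. All 45 *Cyp1b1* UMIs of the cluster lay in the other 79 cells, while *Cyp20a1* was at 47.4 CPM in the 21 cells and 57.2 CPM in the 79. Between this cluster and *Col13a1* fibroblasts, calls were lost without mouse 2 by *Cyp20a1* (0.503) and without mouse 4 by *Cyp20a1* (0.284), with the edgeR adjusted p in parentheses. That call was lost too with library totals in place of TMM by *Cyp20a1* (0.0691), with no filter on low counts by *Cyp20a1* (0.0777), with the mouse as a block by *Cyp20a1* (0.0516), with the stricter filter of 500 genes and 10% mitochondrial UMIs by *Cyp20a1* (0.0945), and with clusters at resolution 1.2 by *Cyp20a1* (0.0652). With the mouse as a block this left 1 call, and 3 members passed with DESeq2 and with clusters at resolution 0.4. Of all genes, 2668, 2597, and 2697 passed in these fits, against 2615 in the main fit. For this pair, the median log2 fold change was 0.00 over the 18 members tested and 0.00 over all 12402 genes tested.

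In pericytes, the contractile cells of capillaries, the leading member was *Cyp20a1* (GRCm38 chr1:60343323-60388060, + strand), at 118, 191, and 138 CPM, above every other type in each mouse. *Cyp7b1* was at 28.7, 30.8, and 23.0 CPM in pericytes and 13.4, 12.8, and 12.7 CPM in smooth muscle. *Cyp4b1* was at 45.9, 135, and 34.4 CPM in pericytes, with mouse 3 the highest. The 29 pericytes with *Cyp4b1* held a mean of 4.17 UMIs of 6 EC markers per cell, and those without held 0.467. Only 9 of the 29 held any UMI of these markers (31.0%), against 15.2% of those without *Cyp4b1*. The 6 EC markers summed to 336, 105, and 138 CPM in pericytes, none at 0, and to between 6894 and 14282 CPM in the EC types. Their part in the *Cyp4b1* level was not tested. The pericytes included a cluster of 43 cells with few UMIs, which held 2 of their 108 *Cyp20a1* UMIs. *Cyp2u1*, a long-chain fatty acid hydroxylase, was at 13.02, 6.47, and 14.1 CPM in *Col13a1* fibroblasts and 5.87, 9.01, and 6.37 CPM in myofibroblasts. Of the rarer members, *Cyp46a1*, a cholesterol hydroxylase known from neurons, had 44 UMIs, 16 of them in myofibroblasts and 11 in *Col13a1* fibroblasts.

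Over the stromal class, 10 of 21 members were higher and 4 lower than the mean log2 level of the other classes, beside 66.7% of all genes (36.1% higher and 30.6% lower). The higher calls, as log2 fold change ± SE, were *Cyp2c44* (4.49 ± 0.45), *Cyp2e1* (4.28 ± 0.11), *Cyp7b1* (3.80 ± 0.54), *Cyp2u1* (3.61 ± 0.37), *Cyp2j9* (3.16 ± 0.25), *Cyp2d22* (2.65 ± 0.12), *Cyp2j6* (2.23 ± 0.15), *Cyp27a1* (2.15 ± 0.31), and *Cyp20a1* (1.65 ± 0.09) and *Cyp1b1* (3.04 ± 1.21 CPM, with ECs above it in CPM). By mean CPM, ECs also lay above stromal cells in *Cyp2d22*, *Cyp2j6*, and *Cyp2j9*, with the values given further below. For *Cyp27a1* the immune class had the larger log2 fold change (3.40 ± 0.28). The lower calls were *Cyp2f2* (-2.83 ± 0.29), *Cyp4f18* (-2.29 ± 0.58), *Cyp4b1* (-2.02 ± 0.35), and *Cyp4v3* (-1.80 ± 0.15). For stromal cells, calls were lost without mouse 3 by *Cyp1b1* (0.247), with the edgeR adjusted p in parentheses. A further loss came with the mouse as a block by *Cyp1b1* (0.0577). Here the median log2 fold change was 0.20 over the 21 members tested and -0.01 over all 14195 genes tested.

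*Cyp4f18* (GRCm38 chr8:71988482-72009626, - strand), a leukotriene hydroxylase of leukocytes, was the leading member of the class. It was at 905, 1021, and 1025 CPM in basophil or mast cells and 606, 557, and 554 CPM in neutrophils. It was at 138, 226, and 156 CPM in interstitial macrophages, 133, 117, and 116 CPM in B cells, and 44.2, 84.1, and 71.8 CPM in alveolar macrophages. The order of basophil or mast cells, neutrophils, and then the others held in every mouse, while interstitial macrophages lay above B cells in each mouse. In club cells, arterial and venous ECs, and pericytes it had no UMI. Its promoter is shown as that of the leading immune member, with capitals on the GATA letters AGATAA, which stand as TTATCT on the other strand and start 231 bases before the start site.
Cyp4f18 promoter, chr8:72009577-72009876 (- strand): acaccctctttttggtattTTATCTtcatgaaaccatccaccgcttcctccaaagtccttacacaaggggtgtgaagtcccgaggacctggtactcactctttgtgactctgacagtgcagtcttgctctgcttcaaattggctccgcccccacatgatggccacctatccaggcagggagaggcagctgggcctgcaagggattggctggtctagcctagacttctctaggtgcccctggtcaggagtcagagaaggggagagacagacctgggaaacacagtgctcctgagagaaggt
AGATAA was found in 3 of the 17 members (*Cyp2j9*, *Cyp2r1*, and *Cyp4f18*) and in 11.2% of all promoter windows.

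*Cyp11a1* (GRCm38 chr9:58006411-58027023, + strand), the mitochondrial enzyme that starts steroid synthesis from cholesterol, was at 1220.2, 1397, and 1356 CPM in basophil or mast cells and had a UMI in all 44 of them. Few UMIs lay elsewhere. B cells held 5 UMIs, AT1 cells 1, and unnamed cells 5. Neutrophils held 24, all in 1 cell of mouse 3 that was marked as a likely doublet and held 17 UMIs of the basophil markers *Mcpt8*, *Cd200r3*, and *Ms4a2*, while the other 465 neutrophils held none of these markers. In 16 of 20 types the count was 0. Exons of *Cyp11a1* overlap those of *Gm17322* on the same strand, and exons of *Cyp4v3* those of *Gm45753*, so counts of both members are uncertain there. Basophil or mast cells were in none of the comparisons between types.

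Neutrophils were compared with B cells. Of 18 members tested, 3 were higher in neutrophils and 2 in B cells, beside 50.1% of all genes (23.6% higher and 26.5% lower). *Cyp4f18* was higher in neutrophils (log2 fold change 2.85 ± 0.16 [SE], edgeR adjusted p = 6.05e-20), as was *Cyp4f13*, a related eicosanoid hydroxylase, at 16.2, 21.6, and 47.8 CPM against 15.6, 13.8, and 13.4 CPM (log2 fold change 1.65 ± 0.33 [SE], edgeR adjusted p = 2.54e-05). *Cyp11a1* passed as higher in neutrophils (log2 fold change 5.37 ± 1.00 [SE], edgeR adjusted p = 6.69e-05) on the UMIs of the single marked cell. With doublets removed or without mouse 3, neutrophils held no UMI of *Cyp11a1*, so no fold is given here. *Cyp20a1* (log2 fold change -2.22 ± 0.80 [SE], edgeR adjusted p = 0.0159) and *Cyp27a1* (log2 fold change -2.63 ± 1.10 [SE], edgeR adjusted p = 0.0369) were higher in B cells, on 2 and 1 UMIs in neutrophils. Against B cells, calls were lost without mouse 2 by *Cyp27a1* (0.0530), without mouse 3 by *Cyp20a1* (0.0850), *Cyp27a1* (0.313), and *Cyp11a1* (0.696), and without mouse 4 by *Cyp20a1* (0.0625) and *Cyp4f13* (0.0683), with the edgeR adjusted p in parentheses. Additional losses came with DESeq2 by *Cyp20a1* (0.0829), *Cyp27a1* (0.0985), and *Cyp11a1* (0.674), with marked doublets removed by *Cyp27a1* (0.0655) and *Cyp11a1* (0.519), and with the stricter filter of 500 genes and 10% mitochondrial UMIs by *Cyp27a1* (0.102). Of all calls, 47.1% were higher with TMM and 29.2% with library totals, which shifted the median of all genes by -0.63, and the members split 3 higher and 4 lower there. For neutrophils and B cells, the median log2 fold change was 0.00 over the 18 members tested and -0.17 over all 12402 genes tested.

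*Cyp27a1* (GRCm38 chr1:74713574-74737892, + strand) was highest in dendritic cells and interstitial macrophages, but not in all myeloid cells. It was at 134, 77.0, and 113 CPM in dendritic cells and 108, 95.5, and 104 CPM in interstitial macrophages. Alveolar macrophages had no UMI of it in 73 cells. Against the limit of 3 UMIs over the group, interstitial macrophages were at least 16.8-fold higher (edgeR adjusted p = 1.06e-06). *Cyp4f18* was the other member that differed between these macrophages (log2 fold change 1.07 ± 0.38 [SE], edgeR adjusted p = 0.0470), beside 14.3% of all genes (7.49% higher and 6.84% lower). *Cyp4v3* (9.86, 78.1, and 45.6 CPM in interstitial and 36.9, 34.6, and 65.3 CPM in alveolar macrophages) and *Cyp4f16* (39.4, 34.7, and 58.6 and 44.2, 29.7, and 45.7 CPM) overlapped. Both types are small, with 34, 35, and 45 interstitial and 14, 35, and 24 alveolar macrophages per mouse. Between macrophage types, calls were lost without mouse 2 by *Cyp4f18* (0.166), without mouse 3 by *Cyp4f18* (0.0996), and without mouse 4 by *Cyp4f18* (0.205), with the edgeR adjusted p in parentheses. Of all calls, 52.3% were higher with TMM and 70.5% with library totals, which shifted the median of all genes by 0.14, and the members split 2 higher and 0 lower there. In macrophages, the median log2 fold change was 0.00 over the 18 members tested and 0.00 over all 12402 genes tested. Only 7 members had over 3 UMIs in interstitial and 6 in alveolar macrophages, so the median of the members says little.

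Dendritic cells carried further members. All 21 UMIs of *Cyp8b1*, the sterol hydroxylase needed for cholic acid, lay in 15 dendritic cells (8, 3, and 10 per mouse). *Cyp2s1*, otherwise a gene of club cells, was at 12.2, 16.0, and 19.3 CPM in dendritic cells and 19.1, 5.18, and 7.17 CPM in T cells. The T cell values rest on few UMIs, as *Cyp2s1* made 14.0% of only 50 member UMIs there. *Scgb1a1* and the other club markers summed to 107, 54.5, and 125 CPM in dendritic cells, with *Muc5b* and *Aldh1a7* at 0, and to 137, 83.0, and 137 CPM in B cells, where *Cyp2s1* was at 0, 0.266, and 0.462 CPM. *Cyp4f16* was at 28.4, 27.3, and 36.1 CPM in dendritic cells. *Cyp2ab1*, an orphan enzyme, had 8 of its 18 UMIs in interstitial macrophages. *Cyp2r1*, which takes the first step of vitamin D activation, had 79 UMIs spread over 13 types, 22 of them in B cells at 2.78, 3.19, and 2.31 CPM.

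Over the immune class, 4 of 21 members were higher and 13 lower than the mean log2 level of the other classes, beside 76% of all genes (37.6% higher and 38.3% lower). The higher calls, as log2 fold change ± SE, were *Cyp4f18* (7.14 ± 0.21) and *Cyp27a1* (3.40 ± 0.28), with *Cyp11a1* (9.62, 27.1, and 20.8 CPM), which had no UMI in ECs and stromal cells and 1 in epithelial cells, and *Cyp2s1* (2.62, 2.03, and 3.26 CPM), which had none in ECs. In CPM the immune level of *Cyp2s1* lay far below the epithelial level of 33.4 ± 10.9 CPM and above the stromal level of 0.161 ± 0.158 CPM. The lower calls were *Cyp2j6* (-6.39 ± 0.26), *Cyp2j9* (-5.44 ± 0.53), *Cyp4b1* (-5.05 ± 0.35), *Cyp2c44* (-3.29 ± 1.30), *Cyp2f2* (-2.62 ± 0.30), *Cyp2d22* (-2.40 ± 0.20), *Cyp39a1* (-1.58 ± 0.20), *Cyp2e1* (-1.53 ± 0.19), *Cyp20a1* (-1.202 ± 0.12), *Cyp4f16* (-0.67 ± 0.18), and *Cyp4v3* (-0.47 ± 0.14), with *Cyp1b1* and *Cyp2b10*, which had no immune UMI. For immune cells, calls were lost without mouse 2 by *Cyp2b10* (0.0712), without mouse 3 by *Cyp2b10* (1.00), *Cyp4f16* (0.0587), and *Cyp2c44* (0.0833), and without mouse 4 by *Cyp4v3* (0.136) and *Cyp2c44* (1.00), with the edgeR adjusted p in parentheses. Calls also fell out with marked doublets removed by *Cyp2b10* (1.00) and with the stricter filter of 500 genes and 10% mitochondrial UMIs by *Cyp2b10* (1.00) and *Cyp2f2* (0.0766). In the immune contrast, the median log2 fold change was -1.53 over the 21 members tested and -0.05 over all 14195 genes tested.

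**Figure D3:**
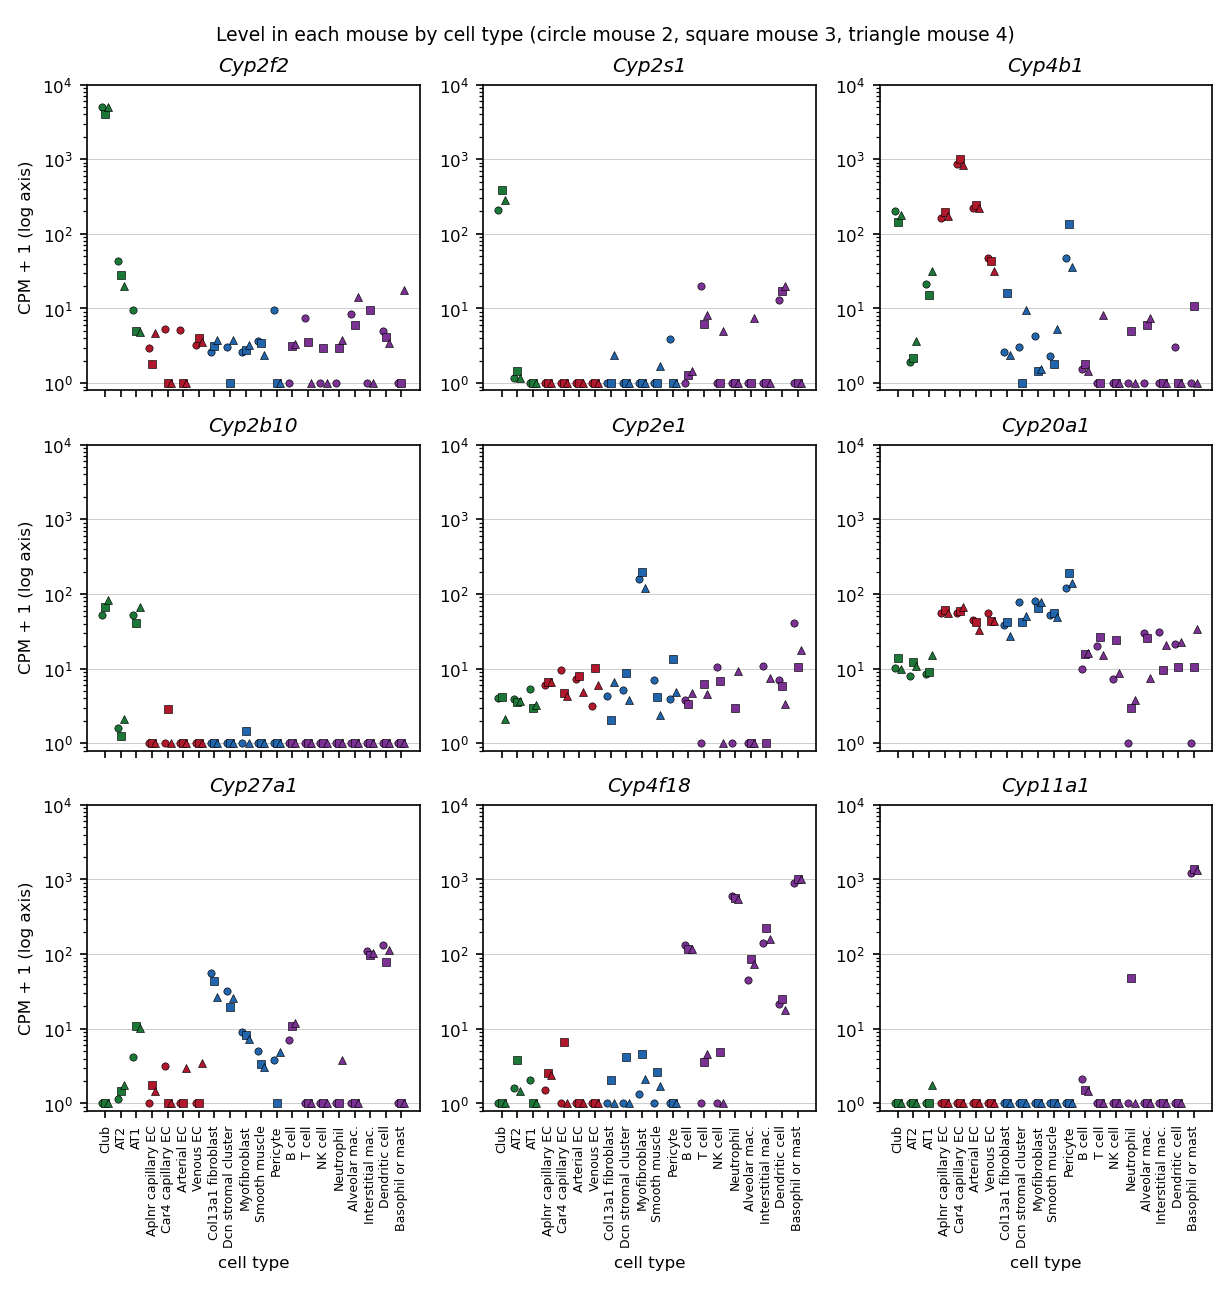
Level of 9 leading members as CPM + 1 (log axis) in each of 20 cell types, with 1 symbol per mouse and colors for the class (green epithelial, red endothelial, blue stromal, purple immune). A value of 1 means no UMI. *Cyp2e1* stands out in myofibroblasts in all 3 mice, *Cyp4b1* in *Car4* capillary ECs, and the single neutrophil value of *Cyp11a1* is that of mouse 3.

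**Figure D4:**
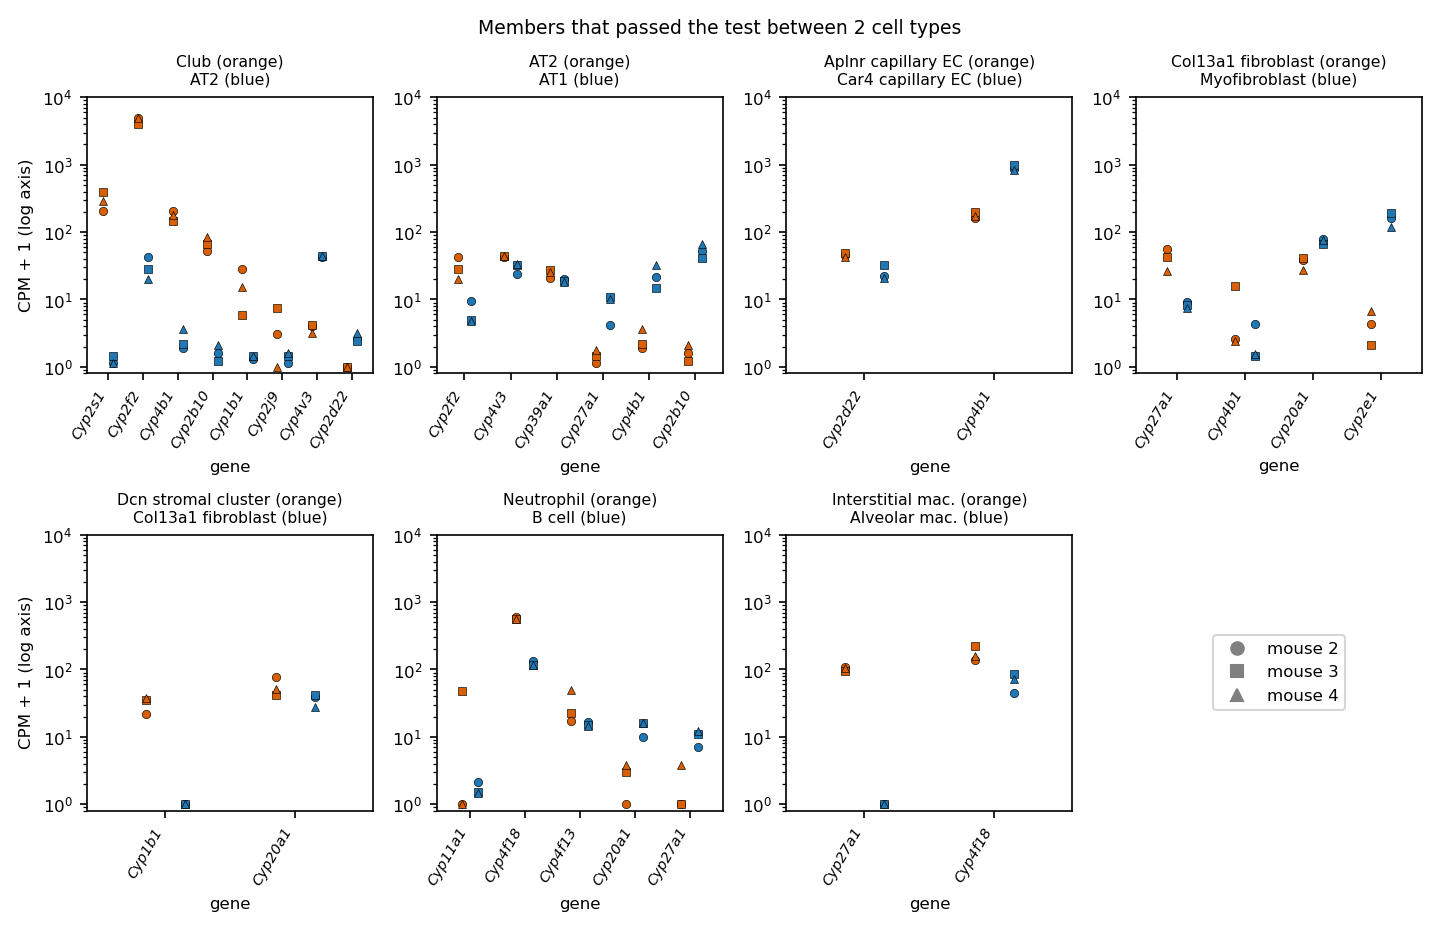
Members that passed the edgeR test in each of 7 comparisons between cell types, as CPM + 1 (log axis) in each mouse, with orange for the first type and blue for the second. The mice of *Cyp4b1* in the capillary types and of *Cyp2e1* in myofibroblasts do not overlap the other type, while *Cyp11a1* in neutrophils rests on mouse 3 and *Cyp20a1* overlaps between the *Dcn* stromal cluster and *Col13a1* fibroblasts.

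*Cyp4f13* (GRCm38 chr17:32924688-32947402, - strand) was counted in all 20 types, with class means of 15.8, 15.1, 14.8, and 16.97 CPM in epithelial, endothelial, stromal, and immune cells. *Cyp4f16* was less even, at 9.16, 16.9, 13.3, and 7.97 CPM in the same order, with the calls in ECs and immune cells given above. *Cyp20a1* was also found in all types, highest in stroma and endothelium, at 70.0, 59.3, and 65.7 and 53.1, 54.4, and 51.7 CPM, and lower in immune and epithelial cells, at 11.1, 14.6, and 14.0 and 7.29, 11.1, and 10.5 CPM. Of the *Cyp2j* subfamily, *Cyp2j6* (GRCm38 chr4:96516138-96553661, - strand) was at 27.8, 26.6, and 22.7 CPM in ECs. It was at 22.7, 25.04, and 22.4 CPM in stromal cells and 13.6, 17.5, and 14.8 CPM in epithelial cells. Its neighbor *Cyp2j9* was at 9.97, 10.6, and 10.7 CPM in ECs, 10.0, 8.09, and 9.45 CPM in stromal cells, and 0.717, 1.11, and 0.694 CPM in epithelial cells, so that *Cyp2j6* alone of the pair was substantial in epithelium. *Cyp2d22* was at 39.3, 43.4, and 37.5 CPM in ECs, 37.5, 33.3, and 36.1 CPM in stromal cells, and 1.31, 1.11, and 1.85 CPM in epithelial cells. In immune cells *Cyp2j6* had 3 UMIs in 3008 cells.

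Besides those named above, the members with 4 to 49 UMIs were *Cyp4f17* (30), *Cyp4x1* (13), and *Cyp4f14* (6) of the fatty acid hydroxylases, *Cyp26a1* (7), which breaks down retinoic acid, and *Cyp27b1* (6), the vitamin D activating hydroxylase. Of the *Cyp26a1* UMIs, 5 were endothelial, and 4 of the *Cyp27b1* UMIs were in myofibroblasts. Of the 11 members with 1 to 3 UMIs, 7 oxidize foreign compounds, 3 fatty acids, and 1, *Cyp17a1*, makes steroids. Among them was *Cyp1a1*, the classic target of the aryl hydrocarbon receptor, with 1 UMI in 7642 cells. Among the 50 members at 0, 31 oxidize foreign compounds, 11 fatty acids, and 4 make steroid hormones. These included *Cyp1a2*, all 6 members of the *Cyp3a* stretch on chromosome 5 (145345279 to 146113287), and 12 of the 14 members of the *Cyp2c* stretch on chromosome 19 (39007019 to 40187333), enzymes known from liver and intestine. A count of 0 in all kept cells allows up to 3 UMIs, by counting error alone.

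Members that lie side by side in the genome often had unlike levels. With a gap of at most 500000 bases, 71 of the 93 members fell into 10 groups. Within the *Cyp2j* stretch on chromosome 4 (96027534 to 96664154), 2 of 8 members had 50 or more UMIs and the other 6 none. In the *Cyp2d* stretch on chromosome 15 (82370527 to 82794294), *Cyp2d22* alone of 8 members had over 3. In the *Cyp4f* stretch on chromosome 17 (32452723 to 32947402), no member of 8 was at 0, and *Cyp4f15* lay mostly in club cells while *Cyp4f13* and *Cyp4f16* were found across types. *Cyp4b1* was the only member of 7 in its stretch on chromosome 4 (115106323 to 115647723) with 50 or more. Tandem copies resemble each other in sequence, so reads that copies share may have been dropped or assigned to another copy in the authors' counting, and the levels of such members are uncertain to that extent. Among the motifs searched, GCGTG, the core of aryl hydrocarbon receptor motifs, was found on either strand in 7 of 17 member promoters (*Cyp1b1*, *Cyp20a1*, *Cyp2b10*, *Cyp2j9*, *Cyp2r1*, *Cyp4f16*, and *Cyp4v3*) and in 32.4% of all windows, and CAAGTG in 3 (*Cyp2f2*, *Cyp2j9*, and *Cyp3a13*).

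Genes that work with the P450 enzymes were followed in 5 lists. Of the electron donors, 7 of 9 tested were higher in epithelial cells than in the mean log2 level of the other classes and 2 lower, and in immune cells 1 was higher and 8 lower, beside 71.2% and 76% of all genes that passed in either direction. In the epithelial class *Fdx1* (2.20 ± 0.07), *Por* (1.76 ± 0.06), and *Cyb5b* (1.58 ± 0.06) were higher, as log2 fold change ± SE. *Por* was highest in club cells, at 548 ± 3.18 CPM, against 173 ± 8.35 CPM in myofibroblasts, 150.3 ± 31.1 CPM in neutrophils, 142 ± 9.83 CPM in AT2 cells, and 20.1 ± 2.01 CPM in B cells. Between club and AT2 cells, 5 electron donors of 9 were higher and 2 lower, beside 38.1% of all genes, among them *Pgrmc1*, a heme-binding partner of P450 enzymes (3.12 ± 0.15), and *Por* (2.17 ± 0.12). In neutrophils against B cells, the pair in which *Cyp4f18* was higher in neutrophils, 2 electron donors of 9 were higher and 2 lower, beside 50.1% of all genes. *Por* was among the higher (3.496 ± 0.20). *Fdx1* was at 30.6 ± 10.3 CPM in basophil or mast cells, where the mitochondrial *Cyp11a1* was high.

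The aryl hydrocarbon receptor itself, *Ahr*, was higher in ECs (4.91 ± 0.11) and lower in stromal (-3.22 ± 0.17), immune (-0.94 ± 0.15), and epithelial cells (-0.74 ± 0.14). It was at 819 ± 15.8 CPM in *Car4* and 659.8 ± 22.7 CPM in *Aplnr* capillary ECs. Its known targets did not all share this order. *Cyp1a1* was nearly absent. *Cyp1b1* also passed as higher in the EC class (edgeR adjusted p = 3.30e-04) but had no UMI in these capillary ECs. *Tiparp* was lower in ECs (-1.23 ± 0.10) and highest in neutrophils, at 494 ± 117 CPM. *Ahrr*, the repressor that *Ahr* induces, was at or below 3.29 ± 5.69 CPM in every type. Of this list, 2 of 7 genes were higher in ECs and 1 lower, 2 and 3 in epithelial cells, 3 and 2 in stromal cells, and 3 and 4 in immune cells. Over all genes, 59.7%, 71.2%, 66.7%, and 76% passed in these contrasts.

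Other oxidizing enzymes of foreign compounds were higher in epithelial cells in 11 of 19 tested and lower in 7 (34.6% and 36.6% of all genes), led by *Aldh1a7* (7.91 ± 0.20), *Aox3* (7.49 ± 0.19), and *Cbr2* (7.34 ± 0.17). In immune cells 17 of 19 were lower, as were 38.3% of all genes. In club against AT2 cells 15 of 18 were higher, against 21.7% of all genes, with *Aldh1a1*, a retinaldehyde dehydrogenase, at 9.22 ± 0.22. *Aldh1a7* is on the club cell marker list too and is not independent of the club cell name. *Col13a1* fibroblasts were higher than myofibroblasts in 13 of 18 and lower in 1 (15.9% and 13.6% of all genes), led by *Ces1d*, a carboxylesterase (8.08 ± 0.34), and *Adh1*, an alcohol dehydrogenase (6.00 ± 0.33), whereas the ethanol-oxidizing *Cyp2e1* was higher in myofibroblasts. In ECs 8 were higher and 7 lower (29.7% and 30% of all genes), led by *Fmo1*, a flavin monooxygenase (6.30 ± 0.19). Of the conjugating enzymes, 15 of 19 were higher in epithelial cells and 3 lower, with the shares of all genes just given for that class, led by the glutathione transferases *Gsta4* (6.25 ± 0.19) and *Gsta3* (6.04 ± 0.20), and 10 of 16 were higher and 3 lower in club than in AT2 cells, where 21.7% and 16.5% of all genes were. Of the other receptors, 3 of 9 were higher in epithelial cells and 2 lower, beside 71.2% of all genes, with the vitamin D receptor *Vdr* highest among them (4.01 ± 0.22).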

How the data were processed

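Lung cells of 3 mice were measured by 10x Genomics 3′ scRNA-Seq. The authors aligned reads to mm10 and made raw UMI count matrices with Cell Ranger 3.0.2, and these deposited counts are the only values used. Totals of kept cells were 20804836 to 23442355 UMIs per mouse, and intervals and floors of 3 counts cover counting error only.

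Of 9644 cells, 7642 had 200 genes or more and no more than 20% of UMIs from mitochondrial genes, and 2002 were left out. They were normalized with SCTransform (sctransform 0.4.2) and clustered in Seurat 5.3.0 under R 4.3.3, with 3000 variable genes, from which 10 *Cyp* genes were removed, 30 principal components, and a Louvain resolution of 0.8. Clusters were named from marker lists. The limits for a name (a mean log2 fold of 1 over at least 3 detected markers) were set after the clusters were seen, as were the *Dcn* cluster's name and the splits of cells by cartilage or lymphatic UMIs. Likely doublets, 156 cells, were marked with Scrublet in scanpy 1.11.5 at 0.8% per 1000 cells and kept in the main values.

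Raw UMIs were summed per mouse and class or type, with at least 10 cells per sum, and tested with edgeR 4.0.16 (TMM, filterByExpr, quasi-likelihood test, Benjamini-Hochberg threshold 0.05 over all genes) in 11 comparisons. All types shared 1 estimate of the spread. Where a group was at 0, no SE or fitted fold is given, apart from the fitted values of *Cyp11a1* under alternatives. Alternatives were DESeq2 1.42.0, library totals, no count filter, doublets removed, a filter of 500 genes and 10% mitochondrial UMIs, resolutions 0.4 and 1.2, a block for the mouse, and fits without 1 mouse in turn. Sums with the same number are cells of the same mouse, and their deviations correlated at −0.04 to 0.27 (18 pairs of sums, 4457 genes). The test scripts were tested on simulated data.

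Members with at least 50 UMIs or a call were described, those with 4 to 49 were named with their count, and the rest were counted by role. Of each partner list, at most 3 called genes with the largest change were named per comparison. The members and lists were chosen with earlier results of these data known. Positions are those of GENCODE M21, and promoters are RefSeq windows (GRCm38.p6), found for 17 of the 22 members with 50 or more UMIs. Scripts ran under Python 3.11.15 with scipy 1.17.1.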

Additional observations from a re-analysis of the deposited data

Results flagged for a closer look

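Member UMIs were also counted in clusters that no comparison used, and they are above the limit of 3 that a count of 0 allows. In a cluster of 144 cells set aside because dividing-cell genes led it, *Cyp4b1*, the fatty acid oxidase that was highest in *Car4* capillary ECs, had 152 UMIs, *Cyp39a1*, an oxysterol hydroxylase, had 68, and the orphan enzyme *Cyp20a1* had 40. The same cluster held 27 UMIs of *Cyp4v3* and 24 of *Cyp2e1*.

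In an unnamed cluster of 27 cells that met no marker list of a class, *Cyp2j6* and *Cyp2j9* had 65 and 33 UMIs, and *Cyp39a1* had 33. *Cyp2j6* stood at 407, 158, and 238 CPM in mice 2, 3, and 4. *Cyp2j9* stood at 215, 35.1, and 201 CPM, with mouse 3 the lowest. *Cyp39a1* stood at 95.7, 193, and 54.9 CPM, with mouse 3 the highest. With 8 to 10 of these cells per mouse, no test was run.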

How the results depend on the processing

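Of 92 member calls, 62 kept their direction and the threshold under every alternative that gave a value, and of 1000 values under alternatives, 78 lost the threshold and 4 turned. *Cyp4b1* between *Col13a1* fibroblasts and myofibroblasts was at −0.51 (log2) with doublets removed and −0.16 without mouse 3 (−0.16 to 3.94 without 1 mouse). *Cyp11a1* between neutrophils and B cells had fitted values of −2.75 with doublets removed and −3.02 without mouse 3 (−3.02 to 6.04 without 1 mouse). All its neutrophil UMIs lay in 1 marked cell of that mouse, so neutrophils were at 0 in both fits. Those negative values are fits to a count of 0 and measure no reversal, though they are counted among the 4 that turned.

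Counts of called members moved as follows. Between capillary types 1 call was left without each mouse in turn, beside 568, 673, and 528 of all genes, against 994 in the main fit. Between macrophage types 1 was left as well, beside 1148, 1221, and 938 of all genes, against 1777. Between capillary types 3 passed with DESeq2 and at resolution 0.4, beside 1158 and 1790 of all genes. Between the *Dcn* stromal cluster and *Col13a1* fibroblasts 3 passed with DESeq2 and at resolution 0.4, beside 2597 and 2697 of all genes. The main fit called 2615. There 1 member was left with library totals (2640 of all genes), no filter on low counts (2754), resolution 1.2 (2592), and the replicate block (2668). Without mouse 2 or 4, 1 was left too (2051 and 1970 of all genes). The range was 1 to 2 without 1 mouse and 1 to 3 over all alternatives. Between neutrophils and B cells 2 were left with DESeq2, 3 with doublets removed, and 2 to 4 without a mouse. Of all genes, 5883 passed there with DESeq2 and 6179 with doublets removed, against 6208 in the main fit. Without mouse 2, 3, or 4 it was 5572, 4842, and 5156. The block, with sums paired by mouse, ended the 5 calls given above and no other. Mean class shares of member UMIs under the stricter filter were 37.2% (epithelial), 21.6% (EC), and 25.9% (stromal), and the stromal share was 19.1% with doublets removed. In mouse 3 the epithelial share under the stricter filter was 20.2%, below every other named class. Too few cells were left for club against AT2 cells and for the macrophage types under the stricter filter. With doublets removed, the 9 club cells of mouse 2 were too few for a sum. At resolution 0.4 the macrophage types fell into the same cluster. Depth limits members under 50 UMIs, for which a count of 0 allows 3. Other causes of these shifts were not tested.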
